A study of Caenorhabditis elegans with 3 samples.

Results

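The regions described here are the ELT-3 peaks that lie upstream of promoters reading in 1 direction only, away from the start itself. A peak belonged to them when its summit lay 301 to 1000 bp upstream of annotated starts of protein-coding transcripts, when all those starts were on 1 strand, and when no protein-coding start had the summit between 300 bp upstream and 200 bp downstream of it. The rule used positions only, and 762 of the 4530 peaks of the thresholded list met it, or 16.8%. They are called upstream peaks here. They were set against 1180 start-proximal peaks, whose summits met that closer window at starts of 1 strand, against 645 divergent peaks, which had starts of both strands in reach, and against 460 other intergenic peaks, which lay in no gene, beyond these windows and within 2 kb of a start.

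ELT-3 ChIP-seq, which sequences DNA pulled down with the factor, was done on intact C. elegans larvae of the earliest stage, L1, from strain OP75 (unc-119(ed3) III; wgIs75). All worms were transgenic and made ELT-3 fused at its C terminus to a GFP-FLAG tag; the sexes were pooled, the chromatin was sonicated, and the promoter and copy number of the transgene are not given in the labels. There was 1 group of 3 libraries, with 2 technical libraries of biological replicate 1, whose deposited list comes from 1 alignment of both, and 1 library of biological replicate 2. The files are peak lists, so the depth is unknown, the intervals given cover counting error only, and with whole larvae the cells in which a peak arose cannot be told. Each peak carries the authors' own signal value, on a scale that is not stated. It is used here to rank peaks within a list. Signal values, their medians and a correlation of log10 signals are given as descriptions.

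ELT-3 belongs to the GATA family of zinc finger transcription factors and is best known for its role in epidermal cells, which lay down the cuticle. Factors of this family bind the short sequence WGATAR, in which W stands for A or T and R for A or G. Distal promoter sequence can hold enhancers that act on the start downstream of them. Most C. elegans transcripts receive a spliced leader in place of their own 5′ end, so an annotated start often marks a splice site, and the place where the polymerase begins can lie further upstream.

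The sequences below show what lay under the strongest of these summits, as 101 bases centred on the summit in the WBcel235 assembly, which is ce11, read 5′ to 3′ on the strand of the gene, with WGATAR on either strand in capitals. 6 of the strongest upstream peaks with a site are given because they show how many sites a summit held and where.
dpyd-1, chrX:5467462-5467562, plus strand: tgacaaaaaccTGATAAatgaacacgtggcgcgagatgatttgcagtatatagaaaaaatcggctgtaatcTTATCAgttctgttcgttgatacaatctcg
F07A11.5, chrII:11611594-11611694, plus strand: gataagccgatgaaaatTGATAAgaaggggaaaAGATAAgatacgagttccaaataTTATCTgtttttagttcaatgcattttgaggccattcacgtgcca
D1086.8, chrV:14095102-14095202, plus strand: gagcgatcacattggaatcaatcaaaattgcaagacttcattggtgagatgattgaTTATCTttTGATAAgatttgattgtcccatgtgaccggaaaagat
nhr-119, chrII:2800967-2801067, minus strand: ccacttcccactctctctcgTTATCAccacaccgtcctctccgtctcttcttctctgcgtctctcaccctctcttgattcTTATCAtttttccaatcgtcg
lea-1, chrV:10012754-10012854, plus strand: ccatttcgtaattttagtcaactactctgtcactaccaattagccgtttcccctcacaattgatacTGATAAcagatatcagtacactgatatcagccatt
elt-3, chrX:13938102-13938202, plus strand: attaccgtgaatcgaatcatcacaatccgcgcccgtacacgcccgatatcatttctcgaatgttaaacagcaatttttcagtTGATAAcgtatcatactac
3 of the strongest without a site are given because the highest signals belonged to such peaks.
rpl-35, chrIII:7854643-7854743, plus strand: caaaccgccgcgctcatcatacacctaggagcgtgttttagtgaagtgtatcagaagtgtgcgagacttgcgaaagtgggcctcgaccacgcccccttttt
atf-7, chrIII:4494788-4494888, minus strand: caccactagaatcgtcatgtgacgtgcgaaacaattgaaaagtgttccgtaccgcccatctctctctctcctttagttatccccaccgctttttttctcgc
ZK6.8, chrV:381333-381433, plus strand: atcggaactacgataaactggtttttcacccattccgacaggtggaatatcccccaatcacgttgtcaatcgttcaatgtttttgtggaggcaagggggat

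The sites are not placed alike in these windows. F07A11.5 has 3 of them, and dpyd-1, D1086.8 and nhr-119 have 2 each. In lea-1 and elt-3 the only site lies nearer the start than the summit. The nhr-119 window also holds runs of alternating G and A, read here from the other strand as C and T, and the atf-7 window holds such a run with no WGATAR.

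Upstream peaks were crowded near the lower limit of distance. Their summits lay a median of 566 bp from the nearest start, with a middle range of 388 to 774 bp. Between 301 and 400 bp there were 213 peaks, or 110 per Mb of the sequence that the rule makes eligible at that distance. Every later step of 100 bp held 80 to 106 peaks, at 41.8 to 54.9 per Mb. All thresholded peaks together came to 45.2 per Mb of the genome, and beyond 400 bp the density of upstream peaks lay near that average. The average includes the denser sequence around starts, so it is not the density of sequence away from promoters. Over the whole window there were 57.0 upstream peaks per Mb, against 112 per Mb for start-proximal and 276 per Mb for divergent sequence. These densities are descriptions of 1 list and were not tested.

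**Figure D1:**
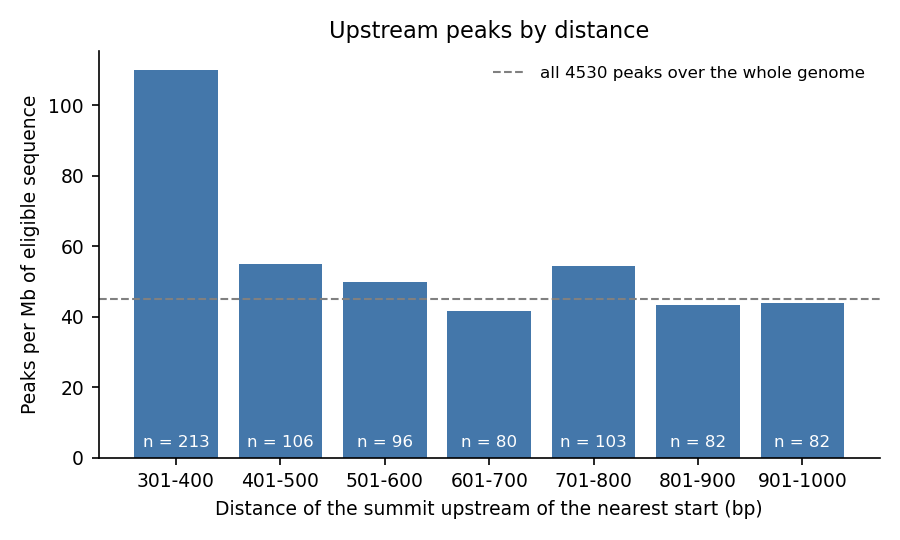
Upstream peaks per Mb of eligible sequence (vertical axis) by distance of the summit from the nearest start in bp (horizontal axis); the number of peaks stands in each bar and the dashed line is all 4530 peaks over the genome, 45.2 per Mb. The bar at 301 to 400 bp reaches 110 per Mb, and the other bars lie between 41.8 and 54.9.

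The lower limit of 300 bp cut through a dense stretch. In the 50 bp just inside it there were 108 upstream peaks with a median signal of 67.7, of which 36.1% had WGATAR within 50 bp of the summit. In the 50 bp just outside there were 125 start-proximal peaks with a median signal of 63.8, of which 21.6% had it. At the limit of 1000 bp, 42 peaks lay in the last 50 bp inside and 33 in the next 50 bp outside, with the site in 40.5% and 33.3% of them.

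Most upstream summits lay between genes. Of the 762, 499 or 65.5% were in no annotated gene, and for 288 of those the gene on the far side ran on the same strand as the gene downstream, for 211 on the opposite one. Another 129 summits, or 16.9%, lay in an intron of the gene whose start they preceded, which happens where a gene has a start further up. The remaining summits were in exons of non-coding genes (59), introns of other genes (35), UTRs (29) and coding exons (11). Of the peaks named below, the exons of non-coding genes held those of dpy-10, dpy-6, osm-11, sma-6 and act-2, among others. An intron of another gene held that of sym-1. Where the summit lay between genes, it was a median of 1704 bp from the near end of the protein-coding gene on the far side. Of all upstream peaks, 753 had starts of 1 gene in reach and 9 had starts of more. A start-proximal peak at the same gene accompanied 123 of them, or 16.1%. Here and below, a gene's start-proximal peak is any thresholded peak with its summit from 300 bp upstream to 200 bp downstream of its starts. Divergent peaks count among them.

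Starts of RNA genes were near some upstream summits. For 623 of the 762 no start of any gene, coding or not, had the summit between 300 bp upstream and 200 bp downstream. Starts of ncRNA genes were that close for 105, with 12 snoRNA, 12 piRNA, 10 tRNA and 8 snRNA cases. WGATAR was present at 31.4% of the 105 peaks near ncRNA starts and at 42.7% of the 623 with no start so close.

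Upstream peaks lay on all 6 nuclear chromosomes and most densely on X. Chromosome X held 166 of them, or 79.6 per Mb of eligible sequence, and III held 117, or 69.1 per Mb. II and I followed with 141 and 116 peaks, at 63.2 and 60.9 per Mb, then IV with 107 at 47.1. V was the sparsest, with 115 peaks at 36.3 per Mb. The whole thresholded list was spread in much the same way. X held 21.8% of upstream and 19.6% of all thresholded peaks, V 15.1% and 16.2%, and I 15.2% and 17.3%. These are counts without a test.

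GATA sites were concentrated under upstream summits. WGATAR, sought on both strands, was found no further than 50 bp from 314 summits, or 41.2% (exact 95% interval 37.7 to 44.8%). Windows of the same width 500 bp towards lower and higher coordinates had it in 21.5% and 20.2% of cases, and 20.6% of all 101-base windows in the eligible sequence had it. Two-sided exact McNemar tests of each summit against its own flanks gave p = 8.8e-16 and 1.5e-18. Summits exceeded the average flank by 20.3 percentage points, by 12.6 points in the strongest 4530 peaks of replicate 1 alone and by 24.4 points in those of replicate 2 alone. A match is a description of the sequence and does not show that the factor was bound there.

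Sites came singly in most of the peaks that had any. There were 448 upstream peaks with none, 193 with 1, 92 with 2, 24 with 3 and 5 with more, and the highest number was 5, upstream of R10D12.1. The nearest site lay a median of 19.5 bp from the summit. Of the 470 sites within these windows, 213 were on the side of the start and 257 on the far side. The median signal was 58.0 in peaks with no site, 59.2 with 1, 73.1 with 2, 57.9 with 3 and 86.6 in the 5 with more.

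**Figure D2:**
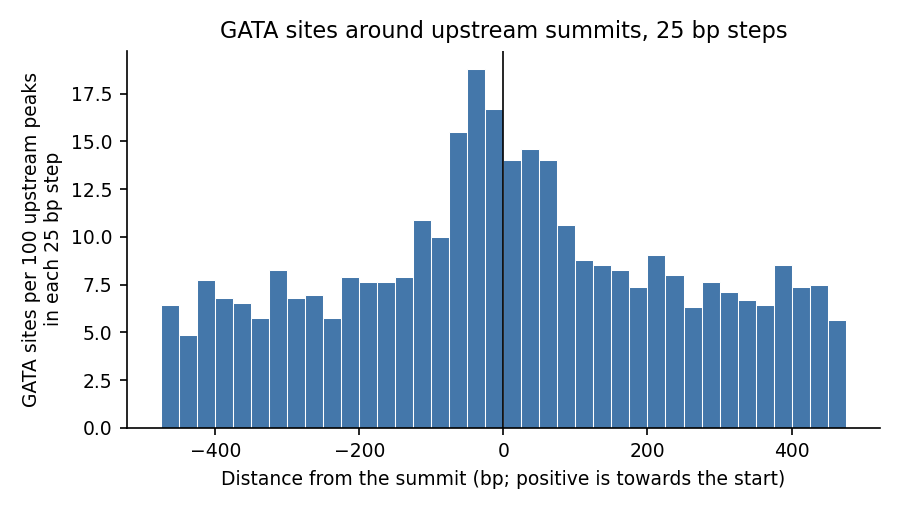
GATA sites per 100 upstream peaks in steps of 25 bp (vertical axis) against distance from the summit in bp, positive towards the start (horizontal axis), over all 762 peaks. The sites pile up within about 100 bp on both sides of the summit, and 41.2% of peaks have one within 50 bp.

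In their GATA content upstream peaks stood between start-proximal and other intergenic peaks. The share with WGATAR was 41.2% in upstream and 34.2% in start-proximal peaks (404 of 1180), a difference of 6.97 percentage points (95% interval 2.55 to 11.4; adjusted p = 0.010 by Fisher's exact test). This call rested on the setting: in the strongest peaks of each replicate alone the difference was 4.34 points for replicate 1 (adjusted exact p = 0.15) and 4.91 for replicate 2 (adjusted exact p = 0.12). It was also lost when summits inside genes were left out, at 5.44 points (adjusted exact p = 0.13). Upstream peaks exceeded divergent peaks, which had the site in 14.9% of cases (96 of 645), by 26.3 points (adjusted p = 3.8e-27 by the same exact test). This difference was 20.1 and 21.1 points in the replicates taken alone. Divergent summits had the site less often than their own flanks, of which 21.1% and 19.8% had it, and this was not tested. Beside other intergenic peaks, which had it in 47.6% (219 of 460), the difference of -6.40 points missed the threshold, with a 95% interval of -12.1 to -0.653 points and an adjusted exact p of 0.12. All p-values against these classes are adjusted over 15 two-sided tests by the Benjamini-Hochberg method, and peaks, not animals, are counted.

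**Figure D3:**
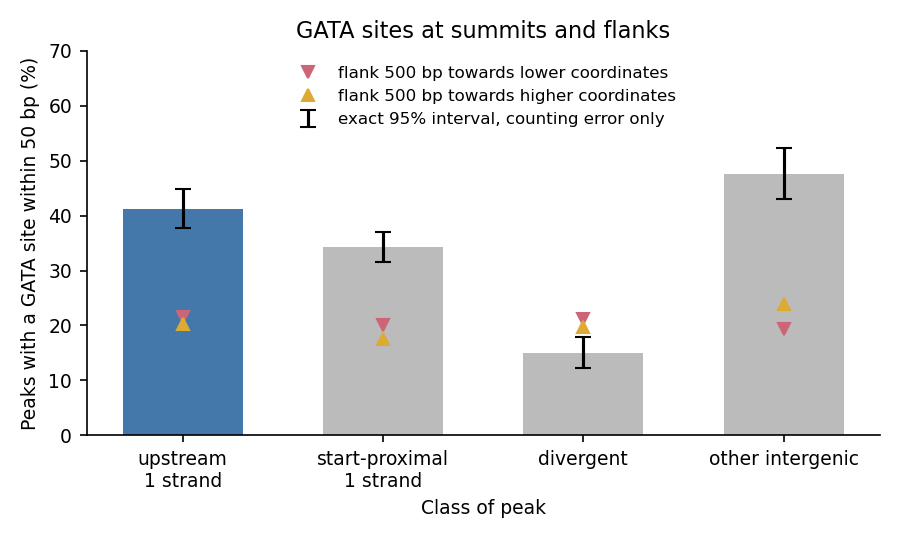
Share of peaks with a GATA site within 50 bp of the summit in percent (bars, with exact 95% intervals) by class of peak, and the same share in windows centred 500 bp towards lower and higher coordinates (triangles). Upstream peaks reach 41.2%, against 34.2% for start-proximal, 14.9% for divergent and 47.6% for other intergenic peaks, and all flanks lie between 17.5 and 23.9%.

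The share with WGATAR varied with the place of the upstream summit, in counts that were not tested. Summits in an intron of their own gene had WGATAR in 53.5% of 129 cases and those in introns of other genes in 51.4% of 35. Summits in no gene had it in 39.7% of 499, and those in exons of non-coding genes in 28.8% of 59. By distance the share was 38.5% at 301 to 400 bp, 34.0% at 401 to 500 bp, and between 39.8 and 48.8% in the later steps. With the peaks split by signal into 4 groups of 190 or 191, from the strongest, it was 46.8%, 43.5%, 35.1% and 39.5%.

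A run of alternating G and A was also concentrated under upstream summits. GAGAGA, on either strand, occurred under 206 upstream peaks, 27.0% of them (exact 95% interval 23.9 to 30.3%). Flanks had it in 5.64% and 6.43% of cases and all eligible windows in 5.33% (two-sided exact McNemar p = 2.4e-30 and 7.0e-27). CTGCGT was present at 101, or 13.3% (10.9 to 15.9%), against 2.36% and 2.10% of flanks and 1.97% of eligible windows (exact McNemar p = 3.4e-15 and 2.7e-17). Both sequences were chosen for the test because earlier results of these data had shown them. WGATAR and GAGAGA were found together at 76 upstream summits, GAGAGA without WGATAR at 130, WGATAR without GAGAGA at 238, and neither at 318. The median signal was 67.0 in peaks with WGATAR alone and 56.9 in peaks with GAGAGA alone.

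Upstream and start-proximal peaks carried these sequences at shares that no test told apart. GAGAGA was present at 27.0% of upstream and 23.7% of start-proximal summits (difference 3.31 points, 95% interval -0.674 to 7.28; adjusted exact p = 0.27), and at 28.0% of other intergenic ones (-1.01 points, -6.19 to 4.17; adjusted exact p = 0.85). Upstream summits had it 10.6 points more often than divergent ones, of which 16.4% had it (adjusted p = 1.3e-05 by Fisher's exact test). For CTGCGT the differences were -0.813 points from start-proximal (95% interval -3.93 to 2.31), -1.94 from divergent (-5.61 to 1.73) and 2.60 from other intergenic peaks (upper bound 6.31), and the adjusted exact p-values ran from 0.39 to 0.80.

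Over all 2080 sequences of 6 bases, with reverse complements joined, 162 or 7.79% exceeded both flanks at upstream summits and 147 or 7.07% fell below both, by exact McNemar tests at an adjusted threshold of 0.05. GAGAGA ranked 1 among the enriched by p, AGAGAG ranked 2, AGAGAC ranked 3 and GAGACG ranked 4, all overlapping one another, and CTGCGT ranked 5. AGACGC at rank 6 and GACGCA at rank 10 overlap both GAGACG and ACGCAG, which is CTGCGT on the other strand. How often GAGAGA and CTGCGT lay together in a longer sequence was not counted, so they are not shown to be separate. The leading sequences with GATA were TGATAA, which ranked 11 at 22.6% of summits against 9.71% of flanks, and GATAAG, which ranked 16 at 14.3% against 5.12%. Among the depleted, AAAATT stood at 15.2% against 43.2%. The summit windows were richer in G and C, with a median of 42.6% against 34.7% in each flank, and its part in these counts was not tested.

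The same scan between upstream and start-proximal summits called nothing. By Fisher's exact test with adjustment over all 2080 sequences, 0 or 0% were higher in upstream peaks and 0 or 0% lower, while 54 were higher and 84 lower at an unadjusted exact p below 0.05. The lowest p belonged to GCGGAC, present at 1.18% of upstream and 4.32% of start-proximal summits (adjusted exact p = 0.070).

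Upstream peaks recurred in the replicates' lists about as often as the whole thresholded list did. A peak of the full list of each replicate overlapped 729 of the 762, or 95.7%, beside 4349 of all 4530 thresholded peaks, with 5 missing from the list of replicate 1 and 28 from that of replicate 2. The full lists, of 30000 and 27330 peaks, also hold background and were input to the thresholded list, so such an overlap says little. Among the strongest 4530 peaks of both replicates were 470, or 61.7%, against 60.3% of start-proximal, 64.7% of divergent and 62.2% of other intergenic peaks (adjusted exact p between 0.45 and 0.90). Across those 729, log10 signals in the replicates had a Pearson r of 0.233 and signals a Spearman rho of 0.255, beside 0.246 and 0.261 over the whole list. The peaks share their libraries. The authors thresholded the list by IDR, the irreproducible discovery rate, for which the full lists were input. Selection for repeatability thus came before these shares and correlations, and the correlations are descriptions.

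Upstream peaks strong in only 1 replicate differed in their sequences. Of the 126 upstream peaks among the strongest of replicate 2 only, 55.6% had WGATAR and 21.4% GAGAGA. Of the 155 among the strongest of replicate 1 only, 28.4% had WGATAR and 34.8% GAGAGA, and of the 470 in both, 41.5% and 26.0%. In the strongest upstream peaks of replicate 1 alone TGATAA ranked 42 and GATAAG 54 among the frequent 6-base sequences. In replicate 2 by itself TGATAA ranked 3 and GATAAG 2, and GAGAGA ranked 1 in both. With 2 biological replicates these differences between them have no test.

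**Figure D4:**
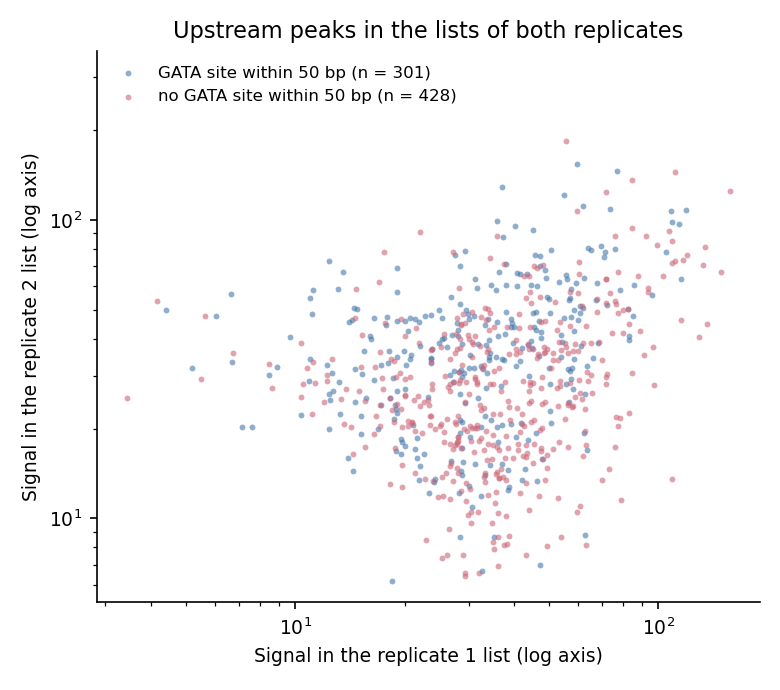
Authors' signal of 729 upstream peaks in the list of replicate 1 (horizontal, log axis) and replicate 2 (vertical, log axis), coloured by whether a GATA site lay within 50 bp of the summit (301 peaks) or not (428). The cloud is broad, with Spearman's rho of 0.255, and a site is present at 28.4% of the peaks strong in replicate 1 alone and at 55.6% of those strong in replicate 2 alone.

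The signal of upstream peaks covered the range of the list. In the thresholded list its median was 60.8 for upstream peaks, with a middle range of 45.2 to 87.0 and extremes of 35.4 and 288. The medians of start-proximal, divergent and other intergenic peaks were 58.1, 65.7 and 60.2. Of the upstream peaks, 389 or 51.0% stood above the median of the whole list, against 47.5%, 56.4% and 50.4% of those classes (adjusted exact p = 0.29, 0.14 and 0.90). At 694 peaks, or 91.1%, the summit was given as the centre of the peak, and 5 pairs of upstream peaks overlapped each other, so neighbouring members are not independent.

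The strongest upstream peak belonged to rpl-35, a gene for a protein of the large ribosomal subunit. Its summit lay 441 bp upstream of the start on chromosome III, and its signal was 288 in the thresholded list, 157 in the list of replicate 1 and 125 in that of replicate 2. Those signals put it at rank 13 of 30000 and 36 of 27330, so both replicates placed it near the top. Pairs of values in brackets below are the signals in the lists of replicate 1 and replicate 2, in that order. The next were mans-1 at 265 (111 in replicate 1 and 145 in replicate 2) and spe-54 at 230 (55.7 and 184), both on chromosome I and both without a GATA site. The replicates differed over spe-54, which ranked 916 in replicate 1 and 3 in replicate 2.

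The peak of dpyd-1, the gene for dihydropyrimidine dehydrogenase, had a signal of 229, 358 bp upstream, with the 2 sites printed above, and ranked 53 in replicate 1 and 67 in replicate 2. The gene also had a start-proximal peak, with a signal of 134. The peak of atf-7, which encodes a bZIP factor of the innate immune response, had a signal of 220 (134 and 81.2) and lay in an intron of atf-7 itself, 388 bp upstream of an inner start. ZK6.8 followed at 215 (84.6 and 136). Of these 6 strongest peaks, that of dpyd-1 was the only one with WGATAR within 50 bp of the summit.

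F07A11.5, with 3 sites, had a signal of 214 and ranked 331 in replicate 1 and 15 in replicate 2. rps-28, a small-subunit ribosomal protein gene, stood at 212 (149 and 67.1) without a site, and a start of Y41D4B.4 was also in reach of that peak. D1086.8 stood at 212 (109 and 98.2) with 2 sites, inside its own intron and 717 bp upstream of a start. The nuclear hormone receptor gene nhr-119 stood at 209 (114 and 97.1), 417 bp upstream, and its window held GAGAGA and also CTGCGT beside the 2 sites. ekl-5 at 207 (133 and 70.6) and D2030.2 at 206 (59.7 and 154) complete the 12 strongest. Of these 12, 5 had WGATAR and 3 GAGAGA. Further down, lea-1, which encodes a late embryogenesis abundant protein, stood at 180 (73.5 and 109) with 1 site, in its own intron and 470 bp upstream of a start.

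Upstream peaks with 3 or more sites numbered 29. After F07A11.5 came cdo-1, the gene for cysteine dioxygenase, with a signal of 174 (105 in replicate 1 and 77.8 in replicate 2), 3 sites and a summit 980 bp upstream, in a UTR. Y105C5B.9 followed at 167 (76.1 and 80.0) with 3 sites. paqr-1, an adiponectin receptor homologue, had 4 sites at 143 (85.7 and 60.7). R10D12.1 had 5 at 134 (35.9 and 98.9), and Y111B2A.12 had 3 at 123 (56.0 and 63.5). The 2 replicates ranked R10D12.1 apart, at 2170 in replicate 1 and 99 in replicate 2.

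The upstream peaks fell to 747 of the 19973 protein-coding genes, or 3.74%, counting every gene with a start in reach. Of those 747 genes, 116 also had a start-proximal peak, divergent ones included, beside 1997 of all 19973 genes. There were 724 genes with 1 upstream peak, 22 with 2 and 1 with 3. The gene with 3 was din-1, which encodes a corepressor that works with the nuclear receptor DAF-12, and its peaks had signals of 64.1, 58.7 and 50.5 in front of starts 569 to 798 bp away. In replicate 2 they had 26.8, 8.69 and no peak, against 43.9, 53.8 and 53.2 in replicate 1. ifbp-1 had peaks of 157 and 73.1, str-176 of 107 and 105, gln-3, a glutamine synthetase gene, of 118 and 77.9, and H41C03.3 of 134 and 51.0. The peaks of H41C03.3 overlap and met the same peak in each replicate's list.

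Genes of the heterochronic pathway, which times larval cell fates, had an upstream peak more often than any other list counted. Of 18 such genes 8, or 44.4%, had one, against 3.74% of all protein-coding genes. A start-proximal peak was present at 2 of the 18, or 11.1%, beside 1997 of all 19973 genes. Per Mb of eligible sequence nearest the starts of heterochronic genes there were 302 upstream peaks, against 57.0 over all genes. However, heterochronic genes also have more of that sequence, 1470 bp each against 669. The microRNA machinery was represented by ain-1, a GW182-family gene, with a signal of 92.0 (44.2 in replicate 1 and 43.6 in replicate 2), by the Argonaute gene alg-1 with 87.3 (63.8 and 28.9), and by alg-2 with 44.5 (23.6 and 22.0). The regulators of early fates were lin-14, a transcription factor gene active in the L1 stage, with 83.1 (29.5 and 49.7), the RNA-binding protein gene lin-28 with 54.8 (20.7 and 34.1) and the hunchback homologue hbl-1 with 47.5 (45.0, with no peak in replicate 2).

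The casein kinase gene kin-20 with 45.3 and lin-66 with 36.2 complete the 8 heterochronic genes. WGATAR was within 50 bp of the summit at lin-14, lin-28 and kin-20. The strongest of the 8, ain-1, ranked 167 among the 762 upstream peaks, and in the 2265 peaks of the list with the highest signal 3 of 18 remained, or 16.7%, against 1.95% of all genes. In the strongest peaks of replicate 1 alone 8 of 18 were marked and in those of replicate 2 alone 5. The alg-1 peak lies within 20 kb of elt-3.

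The lists of epidermal genes lay on both sides of the background, from 1.16% to 17.4%, with 1 to 5 genes marked in each. Of 19 epidermal transcription factor genes 3 had an upstream peak, or 15.8%. elt-3 itself had one of 180 (108 in replicate 1 and 107 in replicate 2), in its own intron 591 bp upstream of a start, with 1 site, and a start-proximal peak of 127. The nuclear receptor genes nhr-25, the Ftz-F1 homologue, and nhr-23, which drives molting, had 54.2 (38.0 and 18.9) and 46.0 (26.7 and 11.6), neither with WGATAR. The peaks of elt-3, ekl-5 and alg-1 are the 3 upstream peaks within 20 kb of elt-3, the gene that the transgene tags, and the part of the transgene in them was not tested. Of 11 GATA factor genes elt-3 was the only one with an upstream peak.

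Of 23 genes for epidermal junctions and attachment 4 had an upstream peak, or 17.4%. These genes have 1796 bp of eligible sequence each, against 669 bp over all genes, and per Mb of it there were 121 peaks, against 57.0. vab-10, which encodes a spectraplakin of the attachments between epidermis and muscle, had peaks of 88.4 (53.5 in replicate 1 and 28.9 in replicate 2) and 50.3 (26.6 and 28.2), each in its introns. The Kank homologue vab-19 had 49.9, the intermediate filament gene mua-6 40.3 and the Scribble homologue let-413 37.3. Of 39 molting and apical matrix genes 4 were marked, or 10.3%, with dpy-6, a mucin-like gene, at 102 (73.3 and 14.6), the astacin protease gene dpy-31 at 93.5 (55.4 and 38.7), sym-1, which encodes a leucine-rich repeat protein of the matrix, at 41.9 and noah-1, for a zona pellucida domain protein, at 41.5. sym-1 had 2 WGATAR and the others none.

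Cuticle collagen genes were marked close to the background, with 5 of 176, or 2.84%, and with 4 in replicate 1 alone and 8 in replicate 2 alone. The strongest was dpy-10 at 182 (136 in replicate 1 and 44.7 in replicate 2), 340 bp upstream and in an exon of a non-coding gene. Next came col-42 at 73.7 and col-63 at 44.2, and all 3 lacked WGATAR. Of 70 genes for epidermal peptides and the osmotic response 4, or 5.71%, had an upstream peak, among them osm-11 at 63.0, fip-5 at 38.5 and tir-1, the SARM homologue of the immune response, at 37.5, each with 1 site. Replicate 1 alone marked 0 of 70, replicate 2 alone 4, and 1 was marked in the 2265 peaks of the list with the highest signal. The 0 does not mean that replicate 1 lacked all these peaks. Its list held a peak at osm-11 at rank 1770, beside rank 1889 in replicate 2. The osm-11 summit of the thresholded list lay 318 bp upstream, close to the limit of 300 bp. Start-proximal peaks, divergent ones included, were commoner in the same list, at 16 of 70, or 22.9%. Over all 19973 protein-coding genes start-proximal peaks were commoner too, at 1997 genes against 747 with an upstream peak. Hedgehog-related and patched-related genes had 1 of 86, hog-1 at 64.1, and 2 in replicate 2 alone.

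Lists of signalling, nuclear receptor and homeobox genes lay on both sides of the background of 3.74%. The share was 9.52% for the TGF-beta list, 6.25% for the Wnt list and 2.15% for the homeobox list. In the TGF-beta pathway of body size 2 of 21 genes were marked, the Schnurri homologue sma-9 with peaks of 85.7 and 52.8 and the type I receptor gene sma-6 with 71.5. In the Wnt pathway 2 of 32 were marked, both beta-catenin genes, wrm-1 at 76.6 (52.9 in replicate 1 and 11.7 in replicate 2) and bar-1 at 38.1 (28.6 and 14.4). Replicate 1 alone marked 3 Wnt genes and replicate 2 alone 0, and 2 and 1 of the TGF-beta list. Of 274 nuclear hormone receptor genes 19 were marked, or 6.93%, led by nhr-119, nhr-62 at 107 and nhr-19 at 106, all with WGATAR. Homeobox genes had 2 of 93, alr-1 at 104 (27.6 and 76.5, with 2 sites) and the Pbx homologue ceh-20 at 73.3.

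Ribosomal protein genes had strong upstream peaks, and more of them had a start-proximal one. Of 81 such genes 9 had an upstream peak, or 11.1%, beside the background of 3.74%. A start-proximal peak, divergent ones included, was present at 40 of the 81, or 49.4%, beside 1997 of all 19973. After rpl-35 and rps-28 came rpl-11.2 at 199 (120 in replicate 1 and 76.0 in replicate 2), and none of the 3 had WGATAR within 50 bp. These genes have little eligible sequence, 371 bp each, and per Mb of it there were 299 upstream peaks.

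Lists for other tissues also lay on both sides of the background, from 0 to 6.45%. Chemoreceptor genes had 8 of 1306, or 0.613%, with srh-17 at 151, str-176 at 107 and srh-76 at 105, each with a site. Neuropeptide and insulin-like genes had 2 of 140, ins-39 at 165 (59.5 in replicate 1 and 107 in replicate 2) and nlp-8 at 36.7. Body-wall muscle genes had 2 of 36, or 5.56%, the actin gene act-2 at 138 and the integrin-linked kinase gene pat-4 at 37.5, with pat-4 absent from the list of replicate 2. Neuronal genes had 2 of 31, or 6.45%, the synaptobrevin gene snb-1 at 91.9 and unc-18 at 37.2, and germline genes 2 of 32, or 6.25%, cgh-1 at 71.2 and gld-2 at 67.0. Intestinal genes had 0 of 31 and pharynx genes 0 of 19. An approximate limit, 3 divided by the number of genes, allows shares of up to 9.68% and 15.8%. Neither list can therefore be told from the background of 3.74%. In the replicates alone the neuropeptide, muscle and neuronal lists had 1 or 2 genes marked. The gene lists were written with results of these data known and are given as counts without a test.

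**Figure D5:**
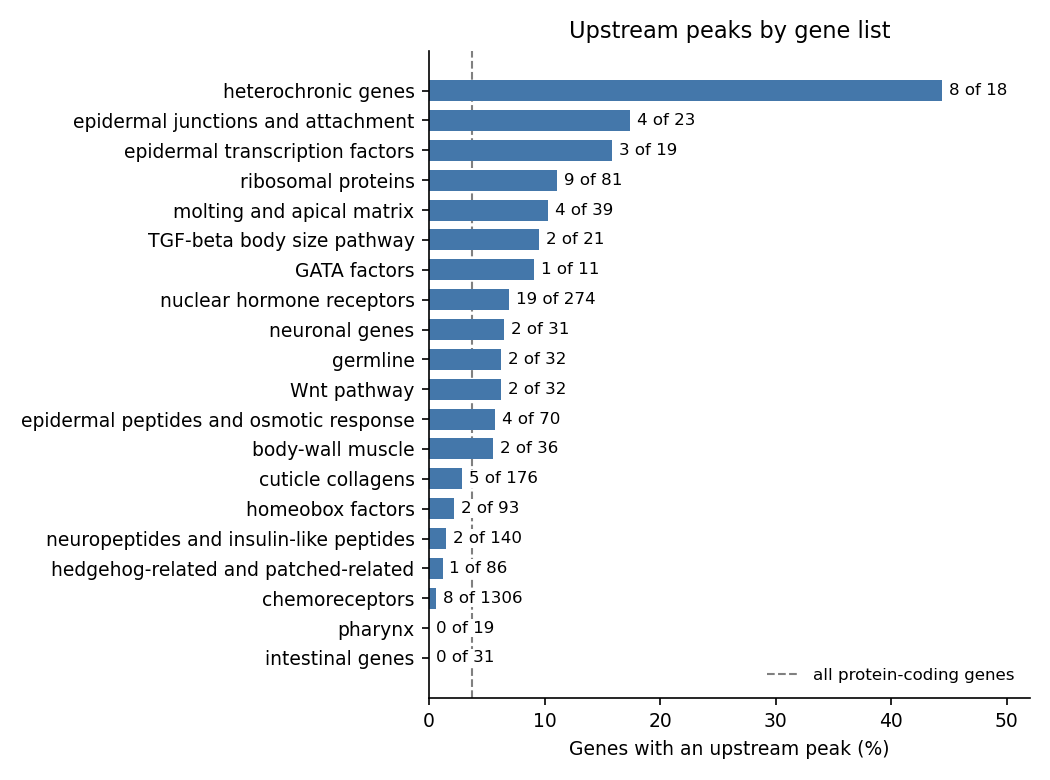
Share of the genes of each list with an upstream peak in percent (bars, with the numbers beside them) and, as a dashed line, the share over all protein-coding genes, 3.74%. Heterochronic genes have the highest share, 8 of 18, and intestinal and pharynx genes have none. The shares take no account of eligible sequence, per Mb of which heterochronic genes have 302 upstream peaks and ribosomal protein genes 299.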

How the data were processed

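The data are the deposited peak lists of 3 libraries in 1 group, made by the authors from alignments and a control. Each peak carries a signal value that the authors deposited, on a scale not stated. Signal was used for ranks and, as description, for medians and correlations, and the deposited summit offset for positions. Of 8 lists, the 4 on ce11 were used and the 4 on ce10 were not. Depth is unknown. Which aligner and peak caller were run, and on which settings, is not given in the sources used here.

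Peaks of the thresholded list, in all 4530, were classed against transcript starts of Ensembl release 115 on WBcel235, and sequence was read from the same assembly. Eligible sequence is every base where a summit would meet the rule, assigned to the nearest start. Motifs were sought within 50 bp of the summit and of points 500 bp to each side. Shares have exact Clopper-Pearson 95% intervals, and tests were two-sided exact McNemar and Fisher tests with Benjamini-Hochberg adjustment at 0.05. Intervals of differences use the normal approximation and support no call. Each replicate alone means the strongest 4530 peaks of its own list; the list of replicate 1 is a series file, identified by the alignment it was made from, per the deposited file descriptions.

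Named genes are those nearest the 12 strongest upstream peaks, the 6 strongest with 3 or more WGATAR, the 3 strongest of each of 20 gene lists, and the 5 genes with the most upstream peaks; the other heterochronic, junction and molting genes were named after their values were seen. Sequences are shown for the 6 strongest with a site and the 3 strongest without, outside chromosome I. The members, the lists and the motifs were chosen with earlier results of these data known. Alternatives covered each replicate alone, the 2265 strongest peaks, other distances, 1 start per gene, other windows and a shorter motif. No label says how separate the worm cultures of the replicates were. The tests were tried on simulated data. Python 3.11.15, numpy 2.4.6, pandas 2.3.3, scipy 1.17.1 and matplotlib 3.10.9 were used.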

Additional observations from a re-analysis of the deposited data

How the results depend on the processing

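Of 211 values recomputed under other settings, 183 kept their direction and their side of the threshold, or for counts stayed within 1.5 times, and 15 changed sign, all in differences that missed the threshold both in the main setting and in the other. The excess of WGATAR over the flanks held in all of them, at 12.6 to 24.4 points in the replicates alone. The difference in WGATAR between upstream and start-proximal peaks, 6.97 points, fell short of the threshold in 7 settings: at 4.34 to 4.91 points in the replicates alone, 6.01 with 1 start per gene (adjusted exact p = 0.054), 5.36 up to 700 bp, 5.44 in no gene, 4.55 within 25 bp and 2.57 with GATAA as the motif. With 1 start per gene the difference from other intergenic peaks passed, at -8.86 points (adjusted exact p = 0.021). Changes of sign were as follows. In the replicates alone the difference from other intergenic peaks ran from -0.905 to 1.31 points for GAGAGA, -0.791 to 2.60 for CTGCGT, -3.35 to 4.63 for the share above the median signal and -1.45 to 2.06 for the share found in both, and the difference from start-proximal peaks in the share found in both from -2.27 to 1.75. For the share found in both the difference from divergent peaks was 3.20 in the 2265 strongest peaks and 3.87 with an overlap of 50% of both peaks, that from other intergenic peaks 1.66 up to 700 bp, and that from start-proximal peaks -2.52 over 500 bp and -0.00867 in the full lists. For CTGCGT it was 0.478 from start-proximal peaks up to 700 bp and -0.268 from other intergenic peaks over 500 bp, for GAGAGA 0.213 from other intergenic peaks in no gene, and for the share above the median -0.548 from other intergenic peaks over 500 bp. Against divergent peaks the difference in the share above the median signal ran from -9.87 to 3.02 points in the replicates alone, and passed in replicate 1 (adjusted exact p = 9.7e-04). The difference in the share found in both ran from -13.6 to -0.0584 points and passed with the peaks of replicate 2 (adjusted exact p = 7.7e-07). For a replicate alone, here and above, found in both means overlap with the strongest peaks of the other replicate. That is not the measure of the main setting. The 6-base sequences more frequent than in the flanks numbered 63 to 208 in the replicates alone, and those less frequent 69 to 184. Genes with an upstream peak numbered 389 in the 2265 strongest peaks, and 731 to 757 in the replicates alone, of which 589 in replicate 1 and 558 in replicate 2 were among the 747. The cause was not tested in any of these. No paired analysis was possible because there is 1 group.

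Limits are the unknown depth, 2 biological replicates, tests that count peaks and not animals, and starts taken from an annotation.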
